A study of Mus musculus with 44 samples.

Results

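The genes described here are 8 genes of the hypothalamic-pituitary-adrenal (HPA) axis: the hormone genes Crh, Avp and Pomc, the receptor genes Crhr1 and Crhr2, the binding-protein gene Crhbp, and the enzyme genes Hsd11b1 and Hsd11b2. Each gene was taken as its RefSeq span with 1000 bp on either side (mouse build GRCm38/mm10), and its level was the mean percent methylation over the cytosines measured in that window. The 8 genes were listed by their role in the axis, with earlier results of these data known. Across the 9 tables of the study 568 cytosines fell in the 8 windows, and 378 of them were measured in all 12 groups. A single table held 400 to 531 of these among 1083654 to 1380165 cytosines in all, and 16529 genes of the genome had at least 1 cytosine in all 9 tables.

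Under stress, neurons of the hypothalamus release corticotropin-releasing hormone (encoded by Crh) and arginine vasopressin (Avp), and both make the pituitary release adrenocorticotropic hormone. That hormone is cleaved from the product of Pomc and drives the adrenal cortex to secrete glucocorticoids. Crhr1 encodes the receptor through which corticotropin-releasing hormone acts on the pituitary and in much of the forebrain, Crhr2 the receptor that prefers the related urocortins, and Crhbp a secreted protein that binds the hormone and keeps it from its receptors. Within target cells, the enzyme encoded by Hsd11b1 regenerates active glucocorticoid from its inert keto form and that encoded by Hsd11b2 inactivates it. Methylation of CpG sites near a transcript start generally goes with low transcription, whereas bodies of transcribed genes are often highly methylated. RNA was not used here, so no statement on expression is made.

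Libraries were made by RRBS (reduced representation bisulfite sequencing), an assay of CpG-dense fragments that gives the percent of reads left unconverted at each cytosine. All mice were wild-type C57BL/6J males of 8 to 12 weeks and all, controls included, had been given the exposures used to model Gulf War Illness: corticosterone at 200 mg/L in 0.6% ethanol for 7 days, the acetylcholinesterase inhibitor diisopropyl fluorophosphate at 4 mg/kg on day 8, and further corticosterone up to week 5. On the last day they received saline, with tissue taken at 6 h, or bacterial lipopolysaccharide (LPS, 0.5 mg/kg), with tissue taken at 6 h, 12 h or 24 h. There were 4 saline libraries of whole blood with 4, 3 and 3 after LPS in order of time, 3 of hippocampus with 4, 3 and 4, and in frontal cortex each group had 4. No group without corticosterone and diisopropyl fluorophosphate was used here, saline was sampled only at 6 h so that treatment and time cannot be told apart at 12 h and 24 h, and neither hypothalamus, pituitary nor adrenal gland was among the tissues.

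Read counts were not part of the tables and the depth of each percent is unknown. Averaged over every cytosine of a table, LPS blood stood above saline blood (6 h, 35.5% against 33.6%; 12 h, 33.9% against 31.5%; 24 h, 34.9% against 32.9%). Blood marker genes moved as well: the level over 10 measured genes of the neutrophil list was 55.6% to 58.2% in the saline blood libraries and 31.6% to 40.4% in the LPS blood libraries, while it was 57.7% to 70.6% in all brain libraries. Of the 11, 10 and 11 neutrophil genes tested in blood at 6, 12 and 24 h, 10, 9 and 10 were lower after LPS and 1, 0 and 1 higher. Median differences of that list were -15.7, -28.4 and -26.1 points. Of 10 leukocyte genes 8 were lower and 1 higher each time, with medians of -16.5, -19.9 and -18.1 points. The level over 8 measured genes of the leukocyte list was 48.5% to 54.4% in saline blood and 38.7% to 41.8% in LPS blood. In brain it was 46.0% to 56.1%, a range that covers saline blood. List levels in blood were higher for T cells (7 genes, 49.6% to 52.4% in saline and 55.4% to 61.3% after LPS) and B cells (5 genes, 47.8% to 48.9% and 55.7% to 65.6%). Single genes of these lists went both ways. Of 9 T cell genes tested each time, 4, 5 and 5 were higher after LPS and 2 lower. Of 7, 6 and 7 B cell genes, 3 were higher each time and 1, 2 and 2 lower. Median differences were +2.21, +3.99 and +5.59 points for T cells and +1.31, +3.08 and +0.428 points for B cells. Those over all tested genes were +1.15, +1.65 and +1.27 points. Astrocyte genes (6) had 29.4% to 31.4% in saline blood and 33.3% to 38.4% after LPS, and oligodendrocyte genes (6) 35.9% to 36.9% and 35.5% to 37.1%. The level over 9 genes of the neuron list, 17.3% to 18.5% in saline blood and 21.7% to 24.5% in LPS blood, was 11.4% to 14.6% in the brain libraries. In bulk tissue a change in the mixture of cells and a change within cells cannot be told apart, and the part of the cell mixture in the blood results below was not tested.

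The measured cytosines lay at the ends of the methylation scale. In saline blood 336 of 424 cytosines were under 10% methylated, 46 were over 80% and 42 lay between. In saline hippocampus the same classes held 441, 45 and 56 of 542 cytosines and in saline cortex 385, 51 and 61 of 497. Crh, Avp and Hsd11b2 were almost wholly unmethylated, with 29 of 29, 33 of 35 and 62 of 65 saline blood cytosines under 10%. Hsd11b1 was the opposite, with all 5 of its saline blood cytosines over 80%. Crhr1, with 169 cytosines the most of the 8 genes in blood, had 120 under 10%, 24 over 80% and 25 between.

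The sequences in front of the transcript start are shown for the 2 genes whose start regions carried a difference between LPS and saline, because they show where RRBS read and where it did not. Both are the 250 bases before the start given by RefSeq (GRCm38.p6). In the Crhr1 sequence, capitals mark the 4 CpG sites that differed between LPS and saline blood at 1 or more times by the criteria given below, among 25 CpG sites of which 23 were measured. In the Pomc sequence, capitals mark the 7 CpG sites measured in any table, of 15.
Crhr1, chr11:104132531-104132780, plus strand: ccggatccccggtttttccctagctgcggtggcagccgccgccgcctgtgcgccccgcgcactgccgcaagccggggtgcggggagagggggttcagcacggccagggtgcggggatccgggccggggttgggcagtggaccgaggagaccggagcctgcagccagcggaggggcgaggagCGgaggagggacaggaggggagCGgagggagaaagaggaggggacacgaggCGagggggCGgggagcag
Pomc, chr12:3954695-3954944, plus strand: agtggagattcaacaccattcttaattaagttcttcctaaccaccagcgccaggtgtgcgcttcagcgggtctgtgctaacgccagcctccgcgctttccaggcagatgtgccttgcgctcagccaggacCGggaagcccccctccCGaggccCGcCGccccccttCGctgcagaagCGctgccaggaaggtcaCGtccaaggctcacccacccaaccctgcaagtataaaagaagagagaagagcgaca
Of 21262 mouse promoters of this length, 13.8% held at least as many CpG sites as that of Crhr1 and 36.7% as many as that of Pomc. The TATA motif TATAAA, searched on both strands, stood in the Pomc sequence and in 11.6% of all promoters, and was not in the Crhr1 sequence. All 4 capital sites of Crhr1 lie within the last 69 bases before the start, and the sequence falls inside the annotated span of the gene, whose other transcripts begin further upstream. The 7 measured sites of Pomc were read in brain (all 7 in hippocampus and 3 in cortex) and in no blood table.

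The question of the LPS comparison was whether an immune challenge after the exposures changed methylation of these genes in blood and in brain. In blood, Crhr1, Crhbp and Pomc were more methylated after LPS, Crhr1 and Crhbp at all 3 times and Pomc at 6 h and 24 h, and no member was called lower. Hsd11b1 had negative differences in blood (-5.10, -0.261 and -1.92 points at 6, 12 and 24 h) that were not called. In hippocampus and cortex no member was called. A gene was tested with limma across all genes of a table if it had at least 3 cytosines and a mean level of 5% to 95%, and was called at a Benjamini-Hochberg adjusted p under 0.05. In blood 3 of 5 tested members were called higher 6 h after LPS, 2 of 4 after 12 h, 3 of 5 after 24 h, where 42.5%, 48.1% and 40.9% of all tested genes were called higher, 9.8%, 7.95% and 8.87% lower, and 52.3%, 56% and 49.7% in either direction. In hippocampus 0 of 5, 5 and 3 and in cortex 0 of 5, 5 and 5 tested members were called, and 1 of these (Crhr1 in hippocampus at 6 h) had an unadjusted p under 0.05. Of all genes, 6.46% were called in hippocampus at 6 h (0.0179% higher and 6.45% lower) and 0% in the other brain comparisons. The median difference over the tested members was +2.19, +2.51 and +1.97 points, against +1.15, +1.65 and +1.27 over all tested genes. With every library shifted to the same overall mean (centred), the median over all genes became -0.765, -0.793 and -0.756 points and the split of calls turned from 5377 higher and 1241 lower to 3237 and 4740 at 6 h, from 5756 and 952 to 3156 and 4491 at 12 h, and from 5108 and 1108 to 3120 and 4099 at 24 h. Directions in blood are therefore given on the percent scale as deposited, and the centred value is named where it alters a call.

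**Figure D1:**
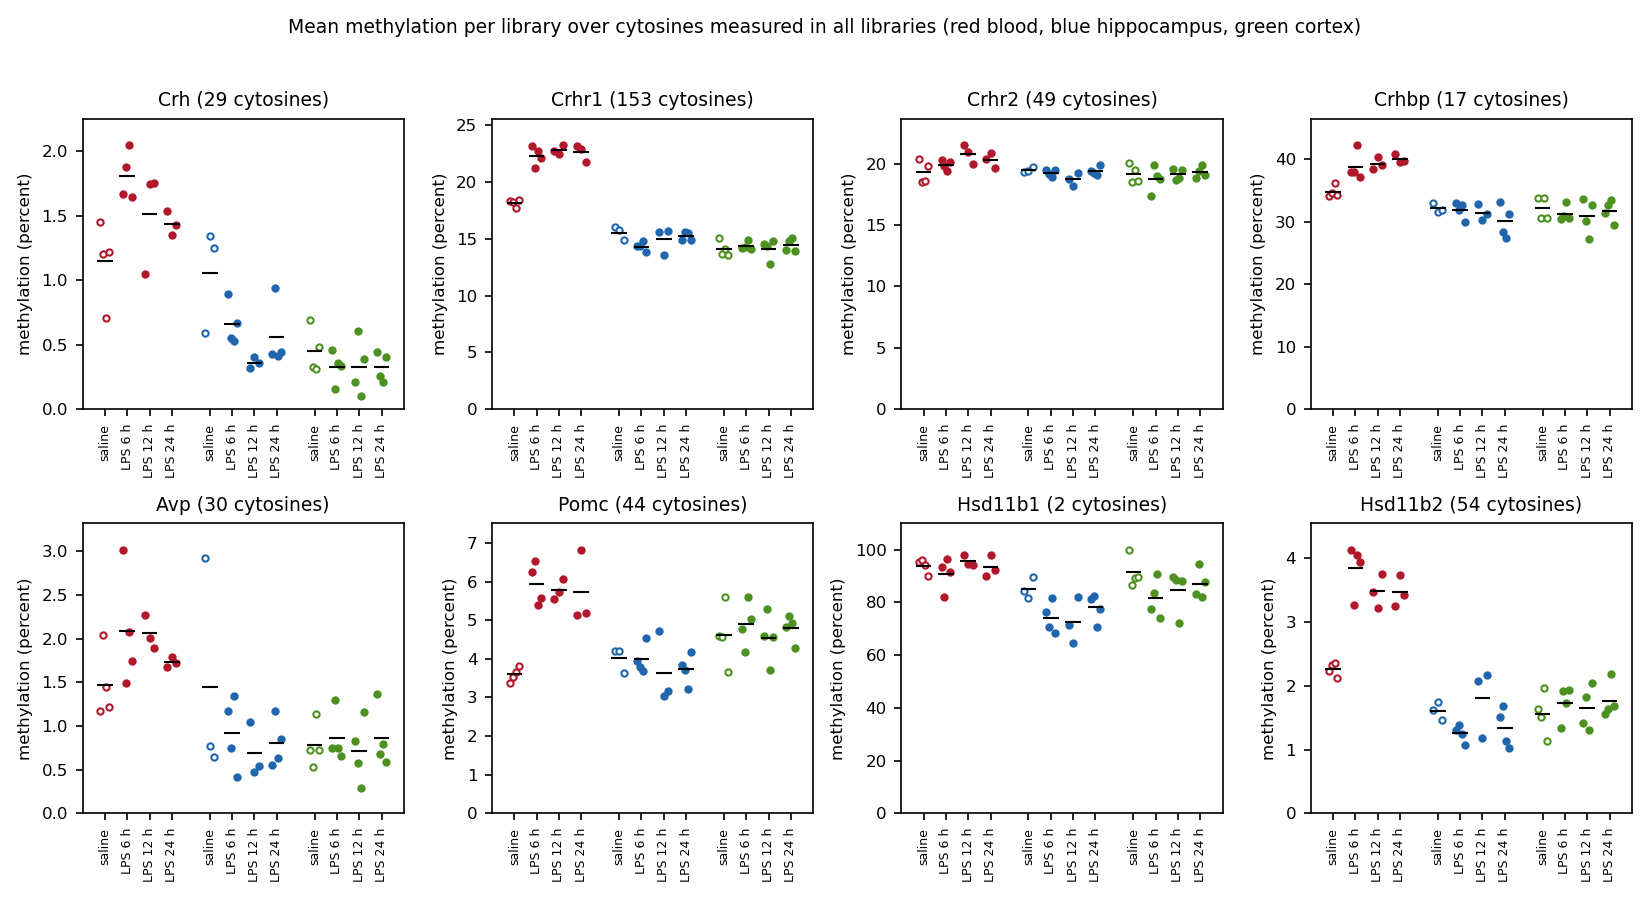
Mean percent methylation of each of the 8 genes (y axis, percent) in every library, over the cytosines measured in all 9 tables, for saline (open points) and LPS (filled points) groups of blood (red), hippocampus (blue) and cortex (green), with bars at the group means. For Crhr1 the LPS blood groups average 22.3% to 22.8% against 18.2% in saline blood, while the brain groups lie between 14.1% and 15.6%. For Hsd11b1 only 2 cytosines were common to all tables.

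Crh, the gene of the hormone that opens the axis, lies on chromosome 3 at 19693401-19695396, and 9 of its 36 cytosines also lie in the long non-coding RNA gene Gm42189. Over the 29 cytosines common to all groups its level was 1.15% ± 0.311 (SD, n = 4) in saline blood and 1.81% ± 0.189 (n = 4), 1.51% ± 0.404 (n = 3) and 1.44% ± 0.0954 (n = 3) in LPS blood at 6, 12 and 24 h. In brain it was 0.326% to 1.06%. The 6 h LPS blood libraries, at 1.65% to 2.05%, all lay above the saline range of 0.711% to 1.45%, but the level was under the 5% limit for testing. Without that limit limma called Crh at 6 h (+0.663 points, adjusted p = 0.0209) and at neither later time. That fit was not run with centred libraries, and its share over all genes is not given here.

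Avp, on chromosome 2 at 130580620-130582588, behaved alike in level. Its 35 cytosines in the 6 h blood table averaged 2.21%, 3.89%, 3.09% and 2.27% in the saline libraries and 5.55%, 4.90%, 4.22% and 3.21% in the LPS libraries. The groups overlapped. Without the level limit the difference of +1.61 points was called at 6 h (adjusted p = 0.0468, limma), and the differences at 12 h and 24 h were not (adjusted p = 0.0951 and 0.107). As for Crh, that fit was not run with centred libraries and its share over all genes is not given. All Avp cytosines form a single run inside the gene, and in hippocampus and cortex their means were 1.41% to 2.32% in every group.

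Pomc, the precursor gene of adrenocorticotropic hormone, lies on chromosome 12 at 3954945-3960643. Its mean over 45 cytosines at 6 h was 5.52%, 5.60%, 5.72% and 5.96% in the saline blood libraries and 8.34%, 8.48%, 7.38% and 7.36% after LPS. At 24 h the LPS libraries had 7.25%, 8.65% and 7.12%. Every LPS library lay above every saline library at both times. The differences were +2.19 points (SE 0.321, adjusted p = 0.000493, limma) at 6 h and +1.97 points (SE 0.403, adjusted p = 0.00451) at 24 h. At 12 h, over 44 cytosines, the mean level of 4.54% was under the limit, and the LPS libraries at 5.56% to 6.08% again all exceeded the saline libraries at 3.38% to 3.82%. With libraries centred the difference of Pomc was +0.272 points at 6 h (adjusted p = 0.680) and -0.0578 points at 24 h (adjusted p = 0.902), so neither the call nor the sign at 24 h held on that scale.

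The difference at Pomc came from a short stretch. Runs, stretches of at least 3 cytosines with gaps of at most 200 bp, were added after the data had been seen and needed an adjusted p under 0.05 with a difference of 5 points or more to be called. The Pomc run at chr12:3955096-3955186, 151 to 241 bp downstream of the start and inside the gene, had 6 cytosines and levels of 15.4%, 21.7%, 17.6% and 22.0% in saline blood. After LPS it had 34.6%, 34.2%, 33.8% and 30.3% at 6 h. The later libraries had 30.7%, 36.9% and 33.7% (12 h) and 33.9%, 40.2% and 32.5% (24 h). No LPS library reached down to the saline range. The limma differences were +14.1 points (SE 2.25, adjusted p = 0.000115), +14.6 points (SE 2.44, adjusted p = 0.00032) and +16.4 points (SE 2.67, adjusted p = 0.000227). The run at the other end of the gene, 4957 to 5384 bp from the start with 38 cytosines, stayed at 1.01% to 1.63% in all blood groups.

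The same 6 cytosines are the measured part of the Pomc promoter, taken as 500 bp on either side of the start, which was called higher at all 3 times in blood. It was the 1 testable promoter among the 3 members with promoter cytosines, where 46.5%, 47% and 43% of all tested promoters were called higher and 59.4%, 57.5% and 55.5% in either direction. In brain it was not called at any time, nor at an unadjusted p under 0.05, and 0.401% of promoters were called in hippocampus at 6 h, all lower, and 0% elsewhere. In brain this run was at 22.2% ± 2.03 (n = 3) in saline hippocampus and 29.0% ± 5.38 (n = 4) in saline cortex, and its LPS means of 22.4% to 23.1% and 28.8% to 31.0% did not differ from them. The saline cortex level exceeded that of saline blood by 9.86 points (SE 2.61, adjusted p = 0.00414, limma), although 1 cortex library at 21.9% lay within the blood range. Set against blood, the LPS difference was -13.2, -14.4 and -15.5 points in hippocampus and -12.0, -14.8 and -15.2 points in cortex at 6, 12 and 24 h, called at each (limma interaction, adjusted p of 0.00235 to 0.0187). The 12 h difference from hippocampus was not called without LPS replicate 2 of blood (-12.9 points) or of hippocampus (-12.1 points). Upstream of the start, at the capital sites of the Pomc sequence, the 7 hippocampal cytosines averaged 12.9% in saline and 15.1%, 12.5% and 10.2% after LPS, and the groups overlapped.

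**Figure D2:**
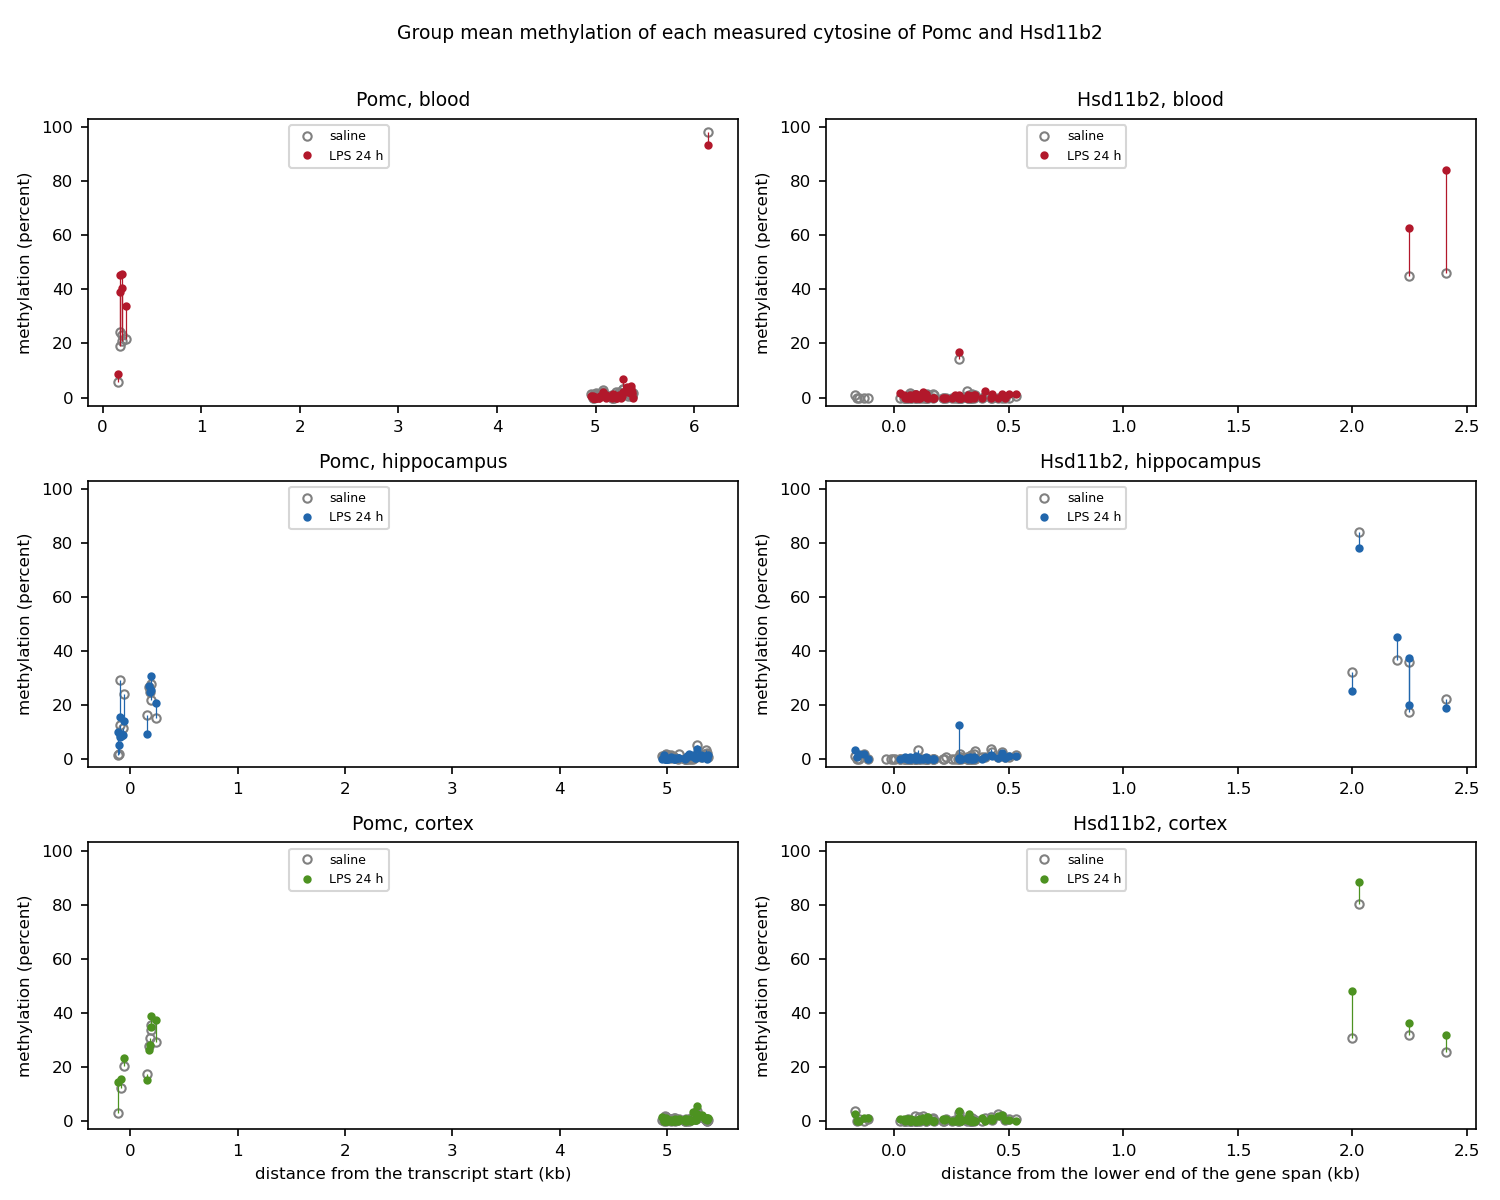
Group mean methylation (y axis, percent) of every measured cytosine of Pomc (left) and Hsd11b2 (right) in blood, hippocampus and cortex, for saline and LPS 24 h. The x axis is the distance from the transcript start (Pomc) or from the lower end of the gene span (Hsd11b2) in kb. In blood LPS 24 h stands above saline at the Pomc cytosines 151 to 241 bp from the start and at a few Hsd11b2 cytosines, on a background of sites near 0%.

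Crhr1, the receptor gene, lies on chromosome 11 at 104130463-104175523, with the RefSeq start used here at 104132781 on the plus strand; 45 of its 256 cytosines also lie in the long non-coding RNA gene Gm35469. In the 6 h blood table its 169 cytosines averaged 22.2%, 22.2%, 21.5% and 22.3% in saline and 27.5%, 24.9%, 27.0% and 26.0% after LPS. At 12 h, over 161 cytosines, saline libraries had 21.1%, 21.1%, 20.6% and 21.2% and LPS libraries 25.7%, 25.2% and 26.4%. At 24 h, over 166 cytosines, the values were 22.4%, 22.4%, 21.8% and 22.7% against 27.2%, 27.3% and 25.6%. The groups did not overlap at any time.

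The Crhr1 differences were +4.28 points (SE 0.569, adjusted p = 0.000285), +4.77 points (SE 0.383, adjusted p = 3.87e-05) and +4.37 points (SE 0.503, adjusted p = 0.000235) by limma, and Crhr1 was the 1 member still called higher in blood at all times with centred libraries. Over the 153 common cytosines the order of group means ran from 22.8% ± 0.367 (LPS 12 h blood, n = 3), 22.6% ± 0.725 (24 h, n = 3) and 22.3% ± 0.846 (6 h, n = 4) to 18.2% ± 0.337 in saline blood (n = 4), 15.6% ± 0.624 in saline hippocampus (n = 3) and then the other 7 brain groups, at 14.1% to 15.2% with the SD ranges of neighbours in this order overlapping and saline cortex lowest at 14.1% ± 0.713 (n = 4). The 3 LPS blood groups did not differ from each other beyond their spread: no member was called between LPS times in any tissue, none had an unadjusted p under 0.05, and 0% of all genes were called. In hippocampus the difference at 6 h was -0.885 points (SE 0.332, adjusted p = 0.124) and in cortex it was -0.0722 to -0.0334 points with adjusted p of 0.999 or 1.

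Among saline libraries Crhr1 was already lower in brain than in blood, with differences of -2.61 points in hippocampus (SE 0.440, adjusted p = 0.000533, limma) and -4.06 points in cortex (SE 0.407, adjusted p = 1.25e-05), over the same cytosines in every tissue. Of 3 tested members 2, Crhr1 and Crhbp, were called lower in each of those comparisons, where 31.5% and 29.2% of all genes were called lower and 52.2% and 53.5% either way. Hippocampus exceeded cortex by 1.45 points, which was not called (adjusted p = 0.0588, with 12.1% of all genes called). Between LPS libraries the differences from blood were -7.69 points in hippocampus and -7.61 in cortex at 6 h, -7.57 and -8.45 at 12 h, then -6.97 and -7.72 at 24 h, all called lower (limma, adjusted p of 1.03e-07 to 3.47e-05). In those comparisons 3, 4 and 2 of 4, 4 and 3 tested members were called lower in hippocampus and 2 in cortex each time, against 58.2%, 46.9% and 51.4% of all genes for hippocampus and 47.7%, 45.1% and 44.8% for cortex. Hippocampus and cortex after LPS gave no call for any member (1, 1 and 0 of 4, 4 and 3 at an unadjusted p under 0.05, both for Hsd11b1), where 28.8%, 0.261% and 21.2% of all genes were called.

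The interaction asks directly whether the LPS difference of blood and brain was unequal. For Crhr1 the LPS difference in hippocampus minus that in blood was -5.68 points at 6 h (SE 0.727, adjusted p = 2.28e-06), -5.20 points at 12 h (SE 0.838, adjusted p = 8.86e-05) and -4.69 points at 24 h (SE 0.641, adjusted p = 7.28e-06) by limma. That in cortex minus that in blood was -4.11, -4.58 and -3.92 points (adjusted p of 4.33e-05 to 0.000142). Of 4, 4 and 3 tested members, 2, 3 and 2 were called in this way for hippocampus and 2 each time for cortex. Of all genes, 48.9%, 35.9% and 40.8% were called in that direction for hippocampus and 34.9%, 36.3% and 32.5% for cortex. Between hippocampus and cortex no member was called at any time; 1 of 4 at 6 h, Crhr1, and none later had an unadjusted p under 0.05, and 0.009%, 0% and 0% of all genes were called.

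**Figure D3:**
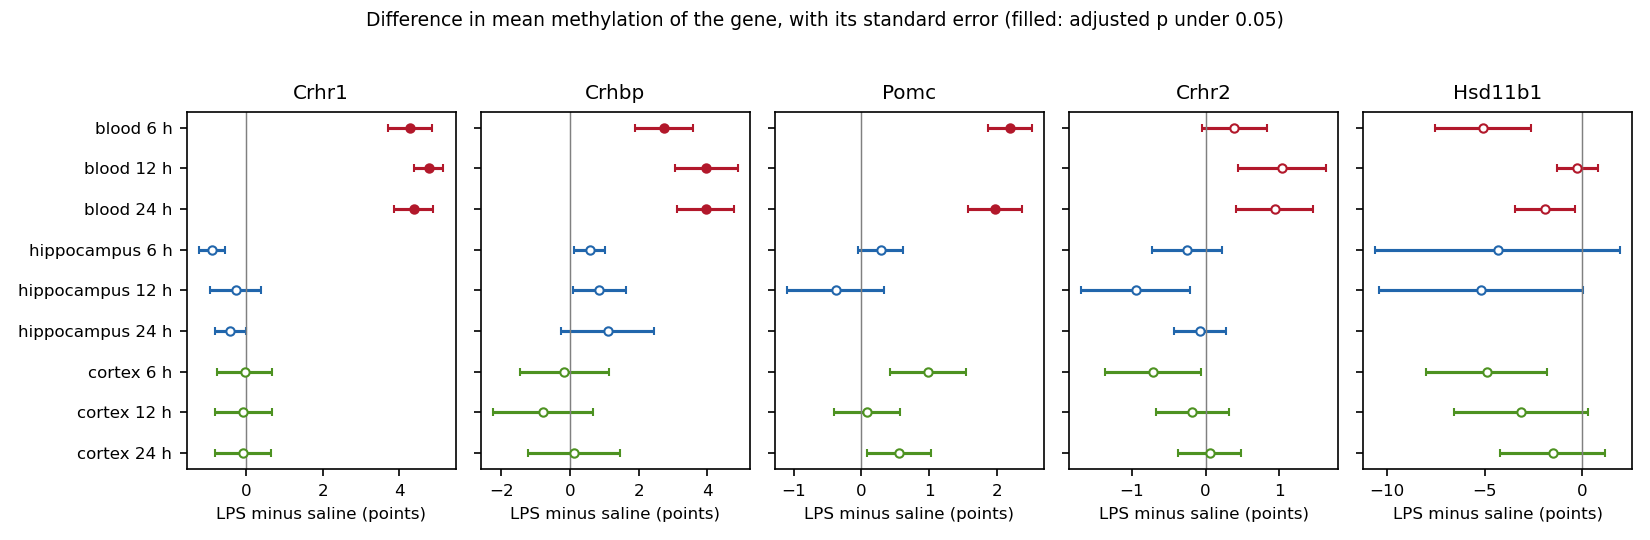
Difference in mean methylation between LPS and saline (x axis, percentage points) for the 5 members that could be tested, by tissue and time, with bars of 1 standard error and filled points where the limma adjusted p was under 0.05. Pomc in blood at 12 h and in hippocampus at 24 h, and Hsd11b1 in hippocampus at 24 h, were not tested and have no point. The 3 blood points of Crhr1 lie between +4.28 and +4.77 and those of Crhbp between +2.74 and +3.98, and all brain points are open.

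Within Crhr1 the difference was spread over several places of the gene. The largest difference among tested blood runs of the 8 genes was that of 5 cytosines at chr11:104171340-104171481, inside the gene and 38559 to 38700 bp from the start. Its levels in saline blood were 26.7%, 32.6%, 31.0% and 29.1%. LPS libraries had 51.6%, 50.6%, 59.5% and 45.6% (6 h), 53.5%, 49.1% and 51.2% (12 h) and 55.3%, 53.3% and 57.8% (24 h). All LPS blood libraries stood well above all saline libraries, with limma differences of +22.0 points (SE 3.22, adjusted p = 5.08e-05), +21.4 points (SE 2.62, adjusted p = 2.46e-05) and +25.6 points (SE 2.89, adjusted p = 9.16e-06).

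In brain the same 5 cytosines stood at 18.2% ± 0.911 in saline hippocampus (n = 3) and 14.4% ± 0.901 in saline cortex (n = 4), with differences from saline blood of -11.7 points (adjusted p = 8.81e-05) and -15.5 points (adjusted p = 1.73e-06). Set against blood, the LPS difference of this run was -27.8, -26.5 and -28.8 points in hippocampus and -21.7, -23.7 and -26.8 points in cortex (limma interaction, adjusted p of 4.54e-08 to 4.66e-06). Counted over the 8 genes, 3 of 13 tested runs were called in blood 6 h after LPS, 5 of 11 after 12 h, 4 of 14 after 24 h, all higher, where 29.7%, 34.8% and 31.2% of all runs were called higher and 41.6%, 44.8% and 42.5% either way. In hippocampus 0 of 14, 16 and 13 and in cortex 0 of 17, 16 and 18 runs were called, with 1, 1, 0, 2, 0 and 3 of them at an unadjusted p under 0.05, and 0% of all runs were called there. In the interaction, 5, 4 and 4 of 12, 10 and 10 tested runs were called for hippocampus against blood and 3 each time for cortex, all toward a higher blood response, where 32.4%, 26.8% and 29.6% and 24.1%, 26.3% and 24.1% of all runs were called in that direction.

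Further Crhr1 runs lay at the low and the high end of the scale. At chr11:104157357-104158148, 24576 to 25367 bp from the start, 11 cytosines averaged 10.8%, 8.00%, 6.70% and 7.36% in saline blood and 16.8%, 14.5%, 14.4% and 17.7% at 6 h after LPS. The later LPS libraries had 15.4% to 18.2% at 12 h and 13.4% to 18.0% at 24 h, so that no LPS library fell into the saline range. The differences of +7.63, +8.78 and +7.61 points were called (limma, adjusted p of 0.000732 to 0.00313), as was the LPS response of both brain regions set against blood at each time (-7.46 to -8.88 points). With centred libraries the 6 h value for hippocampus was -4.88 points, under the 5 points set for a run. At chr11:104151132-104151351, 18351 to 18570 bp from the start, 9 highly methylated cytosines rose from 77.4% ± 2.44 (n = 4) to 84.9% ± 1.54 at 12 h (n = 3; +7.45 points, adjusted p = 0.0184), a call that was lost without LPS 12 h replicate 3 (+6.77 points) or with centred libraries (+5.00 points, adjusted p = 0.0981).

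That last run separated tissues more than treatments. In saline hippocampus it stood at 62.2%, 60.9% and 47.3% and in saline cortex at 56.0%, 46.2%, 44.7% and 45.3%, all below the saline blood libraries at 75.7% to 80.9%. The differences from blood were -20.7 points (SE 4.07, adjusted p = 0.000377, limma) and -29.4 points (SE 3.77, adjusted p = 4.15e-06). After LPS the hippocampus libraries at 6 h had 42.9%, 43.9%, 46.3% and 45.1%, all below the saline libraries, but the difference of -12.3 points was not called (SE 4.44, adjusted p = 0.194). Set against blood it was -15.9 points and called (adjusted p = 0.0146, limma interaction), a call lost without hippocampus saline replicate 1 (-13.2 points) or 2 (-13.9 points). Among saline libraries 4 of 9 member runs were called between hippocampus and blood and 4 of 9 between cortex and blood, where 49.1% and 49.4% of all runs were called. A run 31421 to 31607 bp from the start was the 1 of 9 member runs called between hippocampus and cortex, with hippocampus 7.00 points higher (adjusted p = 0.0138, with 15.3% of all runs called), and this was lost without hippocampus replicate 2 (+5.62 points). In blood the same run rose at 12 h from 91.7%, 91.3%, 87.0% and 87.8% to 93.2%, 95.6% and 96.2% (+5.55 points, adjusted p = 0.0174), which was lost without saline replicate 3 or 4 or LPS 12 h replicate 2 or 3 (+4.72 to +5.26 points).

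Around the Crhr1 start, 107 cytosines from -519 to +1226 bp were nearly unmethylated. Their mean was 2.17%, 2.16%, 1.84% and 2.09% in saline blood. It was 5.72%, 4.55%, 4.96% and 4.65% in blood taken 6 h after LPS, 5.24%, 5.13% and 5.24% by 12 h, then 5.17%, 5.09% and 5.43% by 24 h. The groups were apart at every time, but the level was under the 5% limit; without that limit limma gave +2.91 points (adjusted p = 8.34e-05), +3.14 points (adjusted p = 3.46e-05) and +3.16 points (adjusted p = 4.74e-05), under the 5 points set for a run. The promoter window of 500 bp on either side, with 47 cytosines, likewise went from 1.51% ± 0.337 (n = 4) to 5.27% ± 0.758 (n = 4), 5.00% ± 0.590 (n = 3) and 4.88% ± 0.619 (n = 3). At the last of the capital sites in the Crhr1 sequence, 9 bp before the start, the saline blood libraries had 0%, 3.70%, 4.76% and 0%, and the LPS blood libraries 6.90% to 29.0%, while in brain the highest library had 4.55%. Over the start run the brain group means were 0.584% to 0.974%, with 112 to 159 cytosines measured there.

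**Figure D4:**
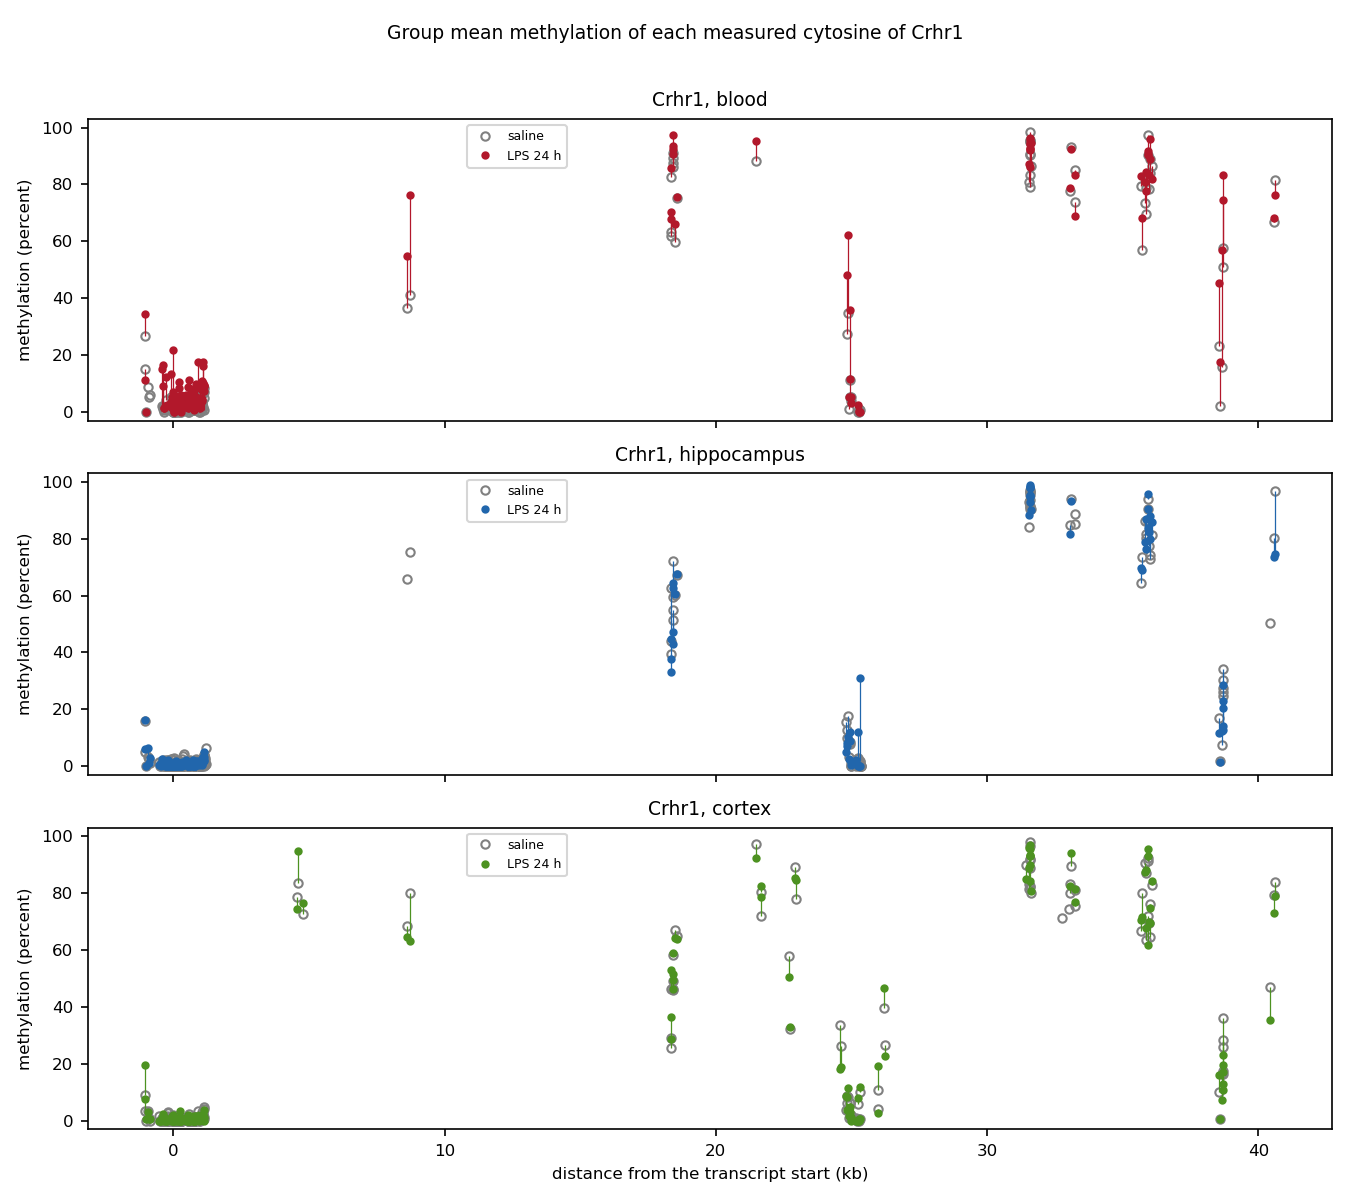
Group mean methylation (y axis, percent) of every measured cytosine of Crhr1 against its distance from the transcript start (x axis, kb), in blood, hippocampus and cortex, for saline and LPS 24 h. Sites within 1226 bp after the start lie near 0% in all tissues. In blood LPS 24 h separates from saline at the start, at 8737 bp, at 24576 to 25367 bp and at 38559 to 38700 bp.

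**Figure D5:**
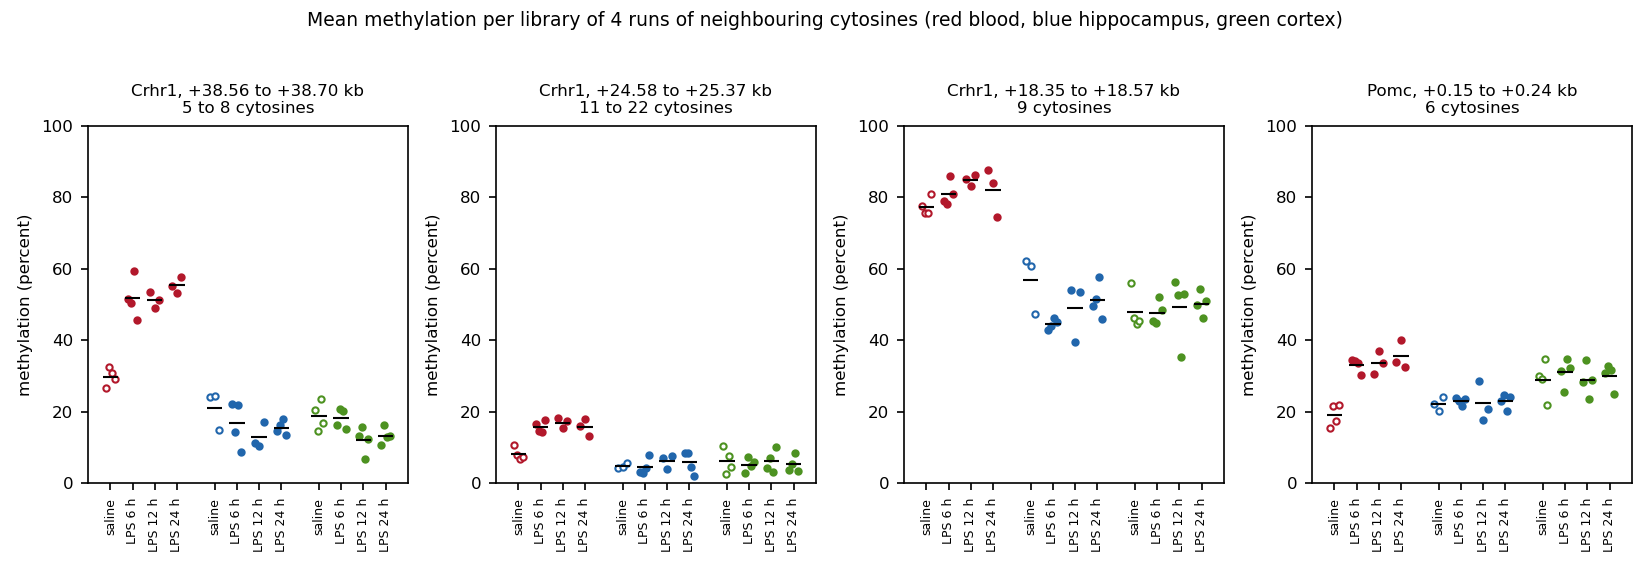
Mean methylation per library (y axis, percent) of the 4 runs called in blood whose saline level was under 80%, 3 in Crhr1 and 1 in Pomc, for saline (open) and LPS (filled) groups of blood (red), hippocampus (blue) and cortex (green), with bars at group means; panel titles give the distance from the transcript start. The number of cytosines behind a point differs between tables where a range is given, so brain groups of different times are not all over the same cytosines. In the first panel saline blood averages 29.9% and LPS blood 51.3% to 55.5%.

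Crhr2, the second receptor gene, lies on chromosome 6 at 55090048-55133016 on the minus strand and was not called between LPS and saline in any tissue. Its 52 cytosines averaged 24.0%, 22.4%, 22.2% and 23.0% in saline blood and 23.7%, 23.1%, 23.0% and 23.3% 6 h after LPS. Later LPS libraries had 24.8%, 24.1% and 22.9% (12 h) or 23.5%, 24.4% and 23.5% (24 h). The groups overlapped at every time, and the differences of +0.389, +1.04 and +0.937 points were not called (adjusted p of 0.501, 0.180 and 0.182, limma). With centred libraries these became -1.53 (adjusted p = 0.0431), -1.41 and -1.09 points. Over the 49 common cytosines Crhr2 had 18.7% to 20.8% in all 12 groups, with the SD ranges of neighbouring groups in the order of levels overlapping. In blood 39 of its 52 cytosines form a run with group means of 1.48% to 2.63%, and the other runs lay over 80%. One of these, 6 cytosines at chr6:55091257-55091349, was higher in saline hippocampus than in saline blood (93.8% against 87.7%, +6.08 points, adjusted p = 0.0130, limma), which was lost without blood replicate 3 (+4.94 points) or hippocampus replicate 3 (+5.36 points). Between LPS libraries at 12 h, Crhr2 was lower in hippocampus than in blood (20.9% ± 0.729 against 22.7% ± 0.897, n = 3 each, -1.81 points, limma adjusted p = 0.0275, groups apart). At that time the LPS difference in hippocampus minus that in blood was -2.02 points (limma adjusted p = 0.0485), a call that was lost on a logit scale and without any 1 of 16 libraries. No Crhr2 cytosine was called between LPS and saline.

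Crhbp, the binding-protein gene, lies on chromosome 13 at 95431376-95444831 on the minus strand. At 6 h its 24 cytosines averaged 26.1%, 28.0%, 27.9% and 26.6% in saline blood and 28.6%, 29.4%, 32.3% and 29.2% after LPS. At 12 h, over 19 cytosines, saline had 32.5%, 33.8%, 34.5% and 33.4% and LPS 35.6%, 39.2% and 37.8%. At 24 h, over 20 cytosines, saline had 30.9%, 32.3%, 33.5% and 31.7% and LPS 37.4%, 35.1% and 35.6%. LPS libraries exceeded saline libraries without overlap each time, by the least at 6 h, where the lowest LPS library was 28.6% and the highest saline library 28.0%.

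The Crhbp differences were +2.74 points (SE 0.841, adjusted p = 0.0234), +3.98 points (SE 0.905, adjusted p = 0.00714) and +3.95 points (SE 0.816, adjusted p = 0.00474) by limma. The call at 6 h was lost without saline replicate 1 (+2.39 points, adjusted p = 0.0650) or 4 (+2.54 points, adjusted p = 0.0616), and with centred libraries the differences were +0.819, +1.53 and +1.92 points, none of them called (adjusted p of 0.345, 0.0833 and 0.108). Over the 17 common cytosines the order ran from LPS blood at 40.1% ± 0.751 (24 h, n = 3), 39.3% ± 0.994 (12 h, n = 3) and 38.8% ± 2.28 (6 h, n = 4) to saline blood at 34.8% ± 0.931 (n = 4), with the 8 brain groups at 30.1% to 32.2% and within each other's spread. Saline hippocampus and cortex differed from saline blood by -2.66 points (adjusted p = 0.0377, limma) and -2.62 points (adjusted p = 0.0282). Both calls were lost on leaving out any of several libraries: blood replicate 2, 3 or 4 or hippocampus replicate 2 or 3 for the former (-2.20 to -2.82 points), and blood replicate 3 or cortex replicate 2 or 4 for the latter (-2.08 to -2.16 points).

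Set against blood, the LPS difference of Crhbp was -3.32, -5.17 and -6.94 points in hippocampus and -4.04, -5.72 and -5.21 points in cortex, all called (limma interaction, adjusted p of 0.00201 to 0.0324). For hippocampus at 6 h the call was lost without any 1 of 6 libraries (-2.52 to -3.26 points) and at 12 h without any 1 of 7 (-4.58 to -5.29 points), and with centred libraries those differences were -0.0371 and -2.31 points and that for cortex at 24 h -3.37 points, none called (adjusted p of 0.973, 0.143 and 0.0590). At single places little was called. A run at -589 to -470 bp from the start, 6 cytosines at chr13:95445301-95445420, went from 83.6%, 83.9%, 84.2% and 83.9% to 91.9%, 91.6% and 87.6% at 24 h (+6.46 points, adjusted p = 0.0187, limma), and this was lost without LPS 24 h replicate 1 (+5.71 points) or 2 (+5.84 points). Within the gene, 810 to 1459 bp from the start, a run of 10 cytosines went from 3.33% to 7.55% at 24 h (+4.22 points, adjusted p = 0.0248), under the 5 points set for a run.

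Hsd11b1, the glucocorticoid-regenerating enzyme gene, lies on chromosome 1 at 193221640-193264045 and was covered by only 2 to 5 cytosines, 2459 to 2544 bp after the start used. Over 5 cytosines saline blood had 94.4% ± 0.599 (n = 4, lowest 93.6%), and LPS blood 92.7%, 82.3%, 94.7% and 87.6% at 6 h. The groups overlapped, and differences of -5.10, -0.261 and -1.92 points were not called (adjusted p of 0.117 to 0.851, limma). With centred libraries the values became -7.02 (adjusted p = 0.0184), -2.71 (adjusted p = 0.0452) and -3.95 (adjusted p = 0.0373) points. In hippocampus saline libraries had 78.7%, 75.3% and 89.4% and 6 h LPS libraries 82.8%, 73.3%, 88.2% and 62.7%, with a difference of -4.35 points (SE 6.26, adjusted p = 0.670). Between LPS libraries, hippocampus differed from blood by -14.7 points at 6 h (SE 4.27, adjusted p = 0.00886, limma, 3 cytosines, groups overlapping) and by -17.0 points at 12 h (SE 3.70, adjusted p = 0.00363, 4 cytosines, groups apart). Saline hippocampus was also below saline blood over 2 cytosines (85.3% ± 3.96 against 93.9% ± 2.70, groups apart, not tested). The LPS difference in hippocampus minus that in blood was not called at 6 h (-1.72 points, limma interaction adjusted p = 0.821) or 12 h (-5.88 points, adjusted p = 0.395).

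Hsd11b2, the glucocorticoid-inactivating enzyme gene, lies on chromosome 8 at 105518746-105523988. Its mean level was under the limit for testing, at 1.86%, 1.99%, 1.95% and 1.76% in saline blood and 3.61%, 2.83%, 3.72% and 3.32% at 6 h after LPS, over 65 cytosines. At 12 h and 24 h, over 60 cytosines, saline had 1.91% to 2.12% and LPS 2.90% to 3.38% and 2.93% to 3.35%. LPS libraries exceeded saline libraries without overlap at all times, and without the level limit limma called +1.48, +1.12 and +1.11 points (adjusted p of 0.000579, 0.00119 and 0.00128). Over all measured cytosines LPS blood also stood above saline blood (35.5% against 33.6%, 33.9% against 31.5% and 34.9% against 32.9%). The fit without the limit was not run with centred libraries, and its share over all genes is not given here. Whether the Hsd11b2 differences go beyond that general shift was not tested.

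The Hsd11b2 sites called in blood at 6 h lay inside the gene. The cytosine at position 105521154 of chromosome 8 had 56.5%, 48.1%, 39.3% and 40.0% in saline blood and 85.7%, 76.9%, 82.1% and 81.8% at 6 h after LPS. It had 86.1%, 69.2% and 88.9% at 12 h, and 84.3% ± 6.58 (n = 3) at 24 h, so the groups were apart each time (limma, +35.7, +35.4 and +38.3 points, adjusted p of 0.000162, 0.00125 and 0.000371). In hippocampus its group means were 15.2% to 22.2% and in cortex 25.6% to 31.7%. The cytosine at 105520992 went from 45.0% ± 5.17 (n = 4) to 73.3% ± 5.54 (n = 4) at 6 h in blood (+28.3 points, adjusted p = 0.00121) and 62.7% at both later times, where it was not called. In hippocampus it had 36.1% ± 3.93 in saline (n = 3) and 18.4% ± 3.51 at 6 h after LPS (n = 4), groups that were apart but not called. Around the lower end of the gene, 63 cytosines from 105518577 to 105519278 averaged 0.507% ± 0.196 in saline blood (n = 4) and 1.02% ± 0.328 at 6 h after LPS (n = 4), with overlapping groups. Without the level limit this difference of +0.508 points was not called (limma adjusted p = 0.154).

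At the level of single sites, cytosines averaging 5% to 95% were tested, and a call needed an adjusted p under 0.05 together with 10 points or more. In blood 17 of 128 tested member cytosines were called 6 h after LPS, 25 of 108 after 12 h, 17 of 117 after 24 h, all of them higher after LPS. Over all tested cytosines 20.6%, 23.1% and 21.1% were called higher and 28.2%, 30.2% and 29.1% either way. Called sites numbered 34 in all, of which 9 were called at all 3 times (8 in Crhr1 and 1 in Hsd11b2), 7 at 2 times and 18 at 1 time. Some are the paired strands of a CpG and are not independent. At 24 h, 1 member cytosine was called lower with centred libraries, and 1 with replicate number as a block. In hippocampus 0 of 104, 103 and 94 and in cortex 0 of 106, 108 and 115 were called, 11, 10, 10, 5, 5 and 7 of them had an unadjusted p under 0.05, and 0% of all cytosines were called in either region.

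Crhr1 held 12, 21 and 12 of the called cytosines. The site at 104141518, 8737 bp from the start, had 35.9%, 39.0%, 44.9% and 44.7% in saline blood and 90.9%, 57.1%, 85.7% and 68.0% at 6 h after LPS, and LPS means of 76.5% at 12 h and 76.1% at 24 h. In saline hippocampus it had 68.4% to 84.2% and in saline cortex 55.6% to 93.3%, and the means of blood after LPS lay between these values. The site at 104171418, in the run furthest from the start described above, had 18.4%, 14.6%, 17.3% and 12.5% in saline blood, 54.3%, 45.5%, 48.3% and 41.5% 6 h after LPS, then 38.7%, 39.7% and 26.9% (12 h) and 54.1%, 54.3% and 62.2% (24 h), with brain means of 6.42% to 16.5%. Here blood after LPS lay further from the brain level than saline blood did. The site at 104157729 went from 11.1% to 50.4% at 12 h (+39.3 points, adjusted p = 0.000116, limma), with 29.8% at 6 h and 35.9% at 24 h.

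The other sites of the 3 largest differences at Crhr1 were 104157659, at 34.7% in saline blood and 63.3% at 6 h and 62.3% at 24 h, and 104171464, at 50.8% and 80.5% at 12 h. In Pomc the called sites were 5 cytosines of 3 CpG sites, 178 to 241 bp from the start, with differences of +14.7 to +26.3 points. Crhbp had 1 called site, at 95445414 and 583 bp upstream of the start, with 71.5% in saline blood and 92.1% at 24 h. Of the cytosines of Crh, Avp and Hsd11b1 none was called.

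A list of 50 other genes of the axis (glucocorticoid and mineralocorticoid receptors, vasopressin, melanocortin and urocortin genes, steroid-making enzymes and regulators) was measured beside the members. In blood 27, 25 and 26 of them could be tested, and 13, 13 and 14 were called higher and 3, 1 and 3 lower at 6, 12 and 24 h, with medians of +1.40, +2.72 and +2.60 points. Over all tested genes 42.5%, 48.1% and 40.9% were called higher and 9.8%, 7.95% and 8.87% lower, with medians of +1.15, +1.65 and +1.27 points, so the shares for this list were near the background. None was called in hippocampus or cortex. The 3 called genes with the largest differences were the same at each time. Avpr1b, the vasopressin receptor of the pituitary, was at 66.2% in saline blood and 81.5%, 82.2% and 87.8% after LPS over 4 cytosines. Cyp17a1, a steroid-making enzyme, went from 60.4% to 74.7% at 6 h (12 cytosines), from 49.3% to 67.7% at 12 h (8 cytosines), where its +18.4 points exceeded the +16.1 points of Avpr1b, and to 75.3% at 24 h. Ucn3, a ligand of Crhr2, went from 72.1% to 85.4% at 6 h.

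The genes whose 12 group means followed those of a member most closely were found among 4877 or 4878 genes, and the correlation describes group means that share libraries, so no p is given. For Crhr1 they were Ajap1 (Pearson r = 0.998), at 28.0% to 45.1% over the groups, and Gpx7 (0.997). For Crhbp they were Nacc2 and Xpnpep1 (both 0.992), for Pomc Kcnj3 (0.983) and Otop1 (0.981), and for Hsd11b2 Fryl and Atg9b (both 0.991). Crh was closest to Gys1 (0.972) and Foxk1 (0.962), Avp to Mcmdc2 (0.980) and Tex26 (0.966), and Crhr2 to Zfp748 (0.946) and Nlrp10 (0.934).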

How the data were processed

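RRBS libraries of blood, hippocampus and cortex were analysed from 9 tables of percent methylation that the authors deposited, 1 for each tissue and LPS time, with a value of 0 to 100 for each cytosine and library. Trim Galore, FastQC, Bismark, Bowtie2, SAMtools, methylKit and GRCm38/mm10 are named in the submitters' processing notes; for versions, settings, a coverage minimum or normalisation the sources give nothing. Libraries were made from 100 ng of DNA with the Ovation RRBS kit, per the labels' protocols. Without read counts, no interval for counting error can be given. Only cytosines that passed into a table are seen, so a gene's saline mean may change from table to table, and comparisons between tissues used cytosines held by all tables concerned. Libraries of a table shared equal values at no more than 48.4% of cytosines, and 0 columns were left unused.

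Percentages were averaged per gene (span and 1000 bp on either side), per promoter (500 bp on either side of the start) and per run, and compared in R 4.3.3 by the moderated linear model of limma 3.58.1 with a mean-variance trend; tests were two-sided and p-values adjusted by Benjamini-Hochberg over all features of a comparison. Tissues were taken as independent, since the labels do not tie libraries to animals; nor do they say that replicates are separate animals, so p-values measure a spread that may be technical. Exons are not annotated in the gene table used, and strand and start were known for 6 of the 8 genes. The code was tested on simulated data. Python 3.11.15 with numpy 2.4.6 and pandas 2.3.3 did the rest. The members, gene lists and marker lists were chosen with earlier results of these data known, and the runs were added after the data had been seen. Named sites are, per gene and time, up to 3 called cytosines with the largest differences; the genes named as alike are the 2 of highest r per member (at least 5 cytosines and an SD over groups of 2 points); the other axis genes named are up to 3 called genes with the largest differences. Same-numbered libraries did not deviate together in every pair, so replicate numbers were not used as a block. Alternatives were centred libraries, a logit scale, a replicate block, other limits on level, cytosine number and difference, other windows, and leaving out each library.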

Additional observations from a re-analysis of the deposited data

Results flagged for a closer look

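For Crh in hippocampus at LPS 24 h, replicate 2 had 0.908% methylation while the other 3 libraries had 0.399% to 0.430%, a gap large against the range of the group; about 1 in 20 groups shows such a gap by chance.

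Limma interaction tests called 5905 of 11113, 4420 of 11060 and 4985 of 10825 genes between hippocampus and blood at 6, 12 and 24 h. Between cortex and blood they called 4623, 4558 and 4284 of the same genes. Among the members the LPS difference was unequal between tissues, by that test, for 3 genes. For Crhr1 its value minus that in blood was -5.68, -5.20 and -4.69 points in hippocampus and -4.11, -4.58 and -3.92 points in cortex at 6, 12 and 24 h. For Crhbp it was -3.32, -5.17 and -6.94 points in hippocampus and -4.04, -5.72 and -5.21 points in cortex. For Crhr2 it was, in hippocampus at 12 h, -2.02 points over 51 cytosines (SE 0.782, limma interaction adjusted p = 0.0485). Within each tissue the LPS difference was not called (+1.04 points over 52 cytosines in blood and -0.952 points over 54 in hippocampus). The call for Crhr2 was lost on a logit scale (limma adjusted p = 0.0513) and without any 1 of 16 libraries. The Crhbp calls for hippocampus at 6 h and 12 h were lost without any 1 of several libraries. Both were also lost with centred libraries (-0.0371 and -2.31 points), as was the Crhbp call for cortex at 24 h.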

How the results depend on the processing

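Under 1494 alternatives to 86 tested values, 1398 kept direction and side of the threshold, 85 fell below it, 4 rose above it and 7 changed sign. Of those kept, 1121 came from leaving out 1 library. Centring alone kept 61, while 14 fell below the threshold, 3 rose above it and 5 changed sign. Centring each library on its mean reversed Crhr2 in blood (-1.53, -1.41 and -1.09 points), Pomc at 24 h (-0.0578 points) and the 12 h hippocampus difference of Crhr2 from blood (+0.849 points). Hsd11b1 in blood at 12 h ranged from -1.20 to +0.292 points on leaving out 1 library, and was above 0 without LPS 12 h replicate 1 (+0.292) or 2 (+0.126). The cause was not tested.

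Counts of called members moved as follows. With no level limit, blood had 6 genes at 6 h and 4 at both 12 h and 24 h, and 2 promoters at each time. With the limit, 52.3%, 56% and 49.7% of all genes and 59.4%, 57.5% and 55.5% of all promoters were called in blood. The shares without it are not given here. With promoter windows of 1000 bp blood had 2 promoters at 12 h and 24 h, with the share over all promoters not given for those times. Centred, saline hippocampus against cortex had 1 called gene of 3 tested. LPS hippocampus against cortex then had 3 of 4 at 6 h and 1 of 3 at 24 h. Uncentred, 1207 of 9940, 3212 of 11149 and 2309 of 10875 genes were called there. Centred interactions with blood had 1 gene for hippocampus at 12 h and 1 for cortex at 24 h. Uncentred, 4420 of 11060 and 4284 of 10825 genes were called in those. Centred, the 12 h blood runs were 3. Centred shares for these gene and run comparisons are not given. Blood cytosines, centred, were 14, 14 and 16, with 1 lower at 24 h. Over all cytosines 138393, 117524 and 136189 were then called. With a minimum of 25 points the blood cytosines were 5, 5 and 7, against 77457, 71159 and 81477 over all cytosines. With the replicate block they were 16, 22 and 19, with 1 lower at 24 h, against 138188, 121619 and 135497 over all cytosines. Cytosines tested in blood were 497583, 412169 and 475639 in each of these settings. The replicate block gave 1 gene for LPS 6 h hippocampus against cortex and ended the calls of the Crhr1 run at 31421 bp (12 h, adjusted p = 0.0731) and the Crhbp upstream run (24 h, adjusted p = 0.0593), and of the latter's interaction with hippocampus (adjusted p = 0.103); the correlation of same-numbered libraries was -0.216 to 0.288.

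Leaving out 1 library gave 2 to 4 genes in blood at 6 h (5910 to 6997 over all genes). It gave 1 to 2 in each saline brain region against blood and 0 to 1 between regions. Over all genes these were 4625 to 5312 for hippocampus, 4870 to 5245 for cortex and 727 to 1257 between regions. LPS hippocampus against blood had 3 to 4, 3 to 4 and 2 to 3, where 7090 to 7643, 5062 to 6358 and 6138 to 6688 of all genes were called. LPS cortex against blood had 2 to 3, and LPS hippocampus against cortex 0 to 1 at 6 h (2378 to 3413 over all genes). The hippocampus interaction had 1 to 2 at 6 h and 1 to 3 at 12 h, where 5479 to 6126 and 3742 to 4940 of all genes were called. With 1 library left out, blood runs were 3 to 4, 3 to 6 and 3 to 5 (over all runs 29309 to 32427, 25976 to 27626 and 28000 to 31011). Saline runs were 2 to 4, 3 to 4 and 0 to 2 (19639 to 21404, 20310 to 21219 and 4973 to 6327). Interaction runs for hippocampus were 4 to 5, 3 to 5 and 3 to 5 (19917 to 22171, 15571 to 18377 and 17386 to 19188), and 0 to 1 between regions at 6 h (0 to 496). Blood cytosines were 12 to 20, 14 to 23 and 15 to 21 (over all cytosines 125708 to 142497, 106222 to 117099 and 118029 to 128192). Hippocampal cytosines at 12 h were 0 to 5 (0 to 8453). Over the whole table, the 721 genes called in hippocampus at 6 h became 1 when centred, 0 with the block, 1 with no level limit and 0 to 223 on leaving out a library, and the 885 blood promoters at 6 h became 1420 in the wider window. The coverage minimum could not be varied, and depth is unknown.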
